A study of Homo sapiens with 46 samples.

Results

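Mesoderm was made in culture from H1, an established human pluripotent stem cell line, and its RNA was sequenced separately from the cytoplasm and from the nucleus. The members of the comparison are the 3 cytoplasm and the 3 nucleus libraries of these cells, which are 6 of the 46 libraries of the series, chosen by their labelled cell type and fraction. The column code of the nucleus libraries is not spelled out in the labels and was read as nucleus because it was the fraction code left over, and the nucleoplasm column used below carries another number than its label. The mesoderm table lists 36407 assembled transcripts, whose counts were added up per Ensembl gene to give 15004 gene sums; 189 transcripts have no Ensembl gene and 17096 are isoforms of known genes with no Ensembl transcript of their own. Both groups come from the same kind of culture, per the labels: 100 ng/ml VEGF, 100 ng/ml BMP4 and 10 ng/ml bFGF, with 100 ng/ml Activin A in the first 24 h only. Cells of both groups were opened with 0.05% NP-40, a mild detergent, in buffers that held α-amanitin, an inhibitor of RNA polymerase II. The lysate was spun through sucrose; the supernatant was taken as cytoplasm and RNA from part of the pellet as nucleus. All cells derive from the H1 line, and the labels do not say whether the replicates were separate cultures, so p-values measure the spread between these libraries, which may be technical.

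An RNA is made and spliced in the nucleus and reaches the ribosomes only after export. RNAs that keep an intron, and several long noncoding RNAs, are known to stay in the nucleus. Messages for most secreted and many membrane proteins have a coding sequence that begins with a hydrophobic signal sequence. They are translated on the endoplasmic reticulum (ER), whose membrane is continuous with the outer membrane of the nucleus. Messages for cytosolic proteins are translated on free ribosomes, and mitochondria hold their own genome and transcripts. A detergent fractionation separates RNAs by the compartment they stay attached to during lysis, so the labels cytoplasm and nucleus stand here for supernatant and washed pellet.

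The mesoderm label was compared with marker genes. HAND1, a transcription factor of lateral mesoderm, lay at 132, 127 and 136 CPM (each library's counts divided by its sum, times a fixed factor) in the cytoplasm and 26.6, 30.9 and 34.3 in the nucleus. TBXT, the marker of the early primitive streak, was near 0 at means of 0.13 and 0.19 CPM, and MIXL1 and GATA4 were not analysed here. Other mesoderm markers ran from means over the 6 libraries of 412 (HAPLN1) and 212 CPM (BMP4) to 6.78 (PDGFRA), 3.81 (GATA6) and 0.16 (APLNR). Some pluripotency genes were still high, with mean POU5F1 at 892 CPM in the cytoplasm and 346 in the nucleus. The 6 pluripotency markers in the table ran from means over all libraries of 991 (LIN28A) to 112 (ZFP42) and 12.9 CPM (TERT). NANOG and SOX2 were not among them. GATA3 and TFAP2A, which also mark extraembryonic cells, lay at cytoplasmic means of 123 and 168 CPM. Of the 10 such markers in the table, CDX2, CGA and HEY1 were low, at means over all libraries of 0.33, 0.90 and 8.22 CPM. The rest ran from 22.0 (KRT7) to 326 CPM (IGFBP3). Of the ectoderm markers, NES had means of 189 CPM in the cytoplasm and 1353.5 in the nucleus. OTX2 had 56.1 and 29.2, SOX3 30.3 and 51.7, and ZIC1 0.996 and 0.176. The markers therefore do not single out mesoderm, and the cells are called mesoderm below by their label.

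Depth ran from 13506967 to 17143491 counts in the cytoplasm and from 7178789 to 13554467 in the nucleus. Log CPM correlated at r of 0.976 to 0.988 within a fraction and at 0.794 to 0.862 between fractions, across genes. Cytoplasm replicate 2 held more counts of several very short RNAs than its 2 partners. Nucleus replicate 2 held fewer counts of some genes annotated as long noncoding RNAs than replicates 1 and 3. The values are given gene by gene. Mitochondrially encoded RNA made up 5.84 to 7.46% of cytoplasmic and 1.11 to 1.36% of nuclear counts. Cytosolic ribosomal protein messages made up 11.2 to 13.6% and 1.61 to 2.31%. Since each library is read as shares of its own counts, a lower amount of a message per cell and a larger amount of the others cannot be told apart.

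Of the 15004 gene sums, 13647 passed the filter on low counts, and the 2 fractions differed for most of them. By edgeR's quasi-likelihood test with Benjamini-Hochberg adjustment, 10436 (76.5%) differed at an adjusted p under 0.05: 5280 (38.7%) were higher in the cytoplasm and 5156 (37.8%) lower. At least 2-fold differences made up 2763 higher (20.2%) and 2814 lower genes (20.6%). The 3 libraries of one fraction lay wholly above those of the other for 10507 genes (77.0%). Every log2 value below is cytoplasm minus nucleus with its standard error (SE), and the median over all tested genes was 0.01. Scaling sets where 0 lies. On the authors' TPM values that median was -0.88, and higher genes were 13.5% of those called instead of 50.6%. List medians on the TPM scale are therefore also given relative to it.

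**Figure D1:**
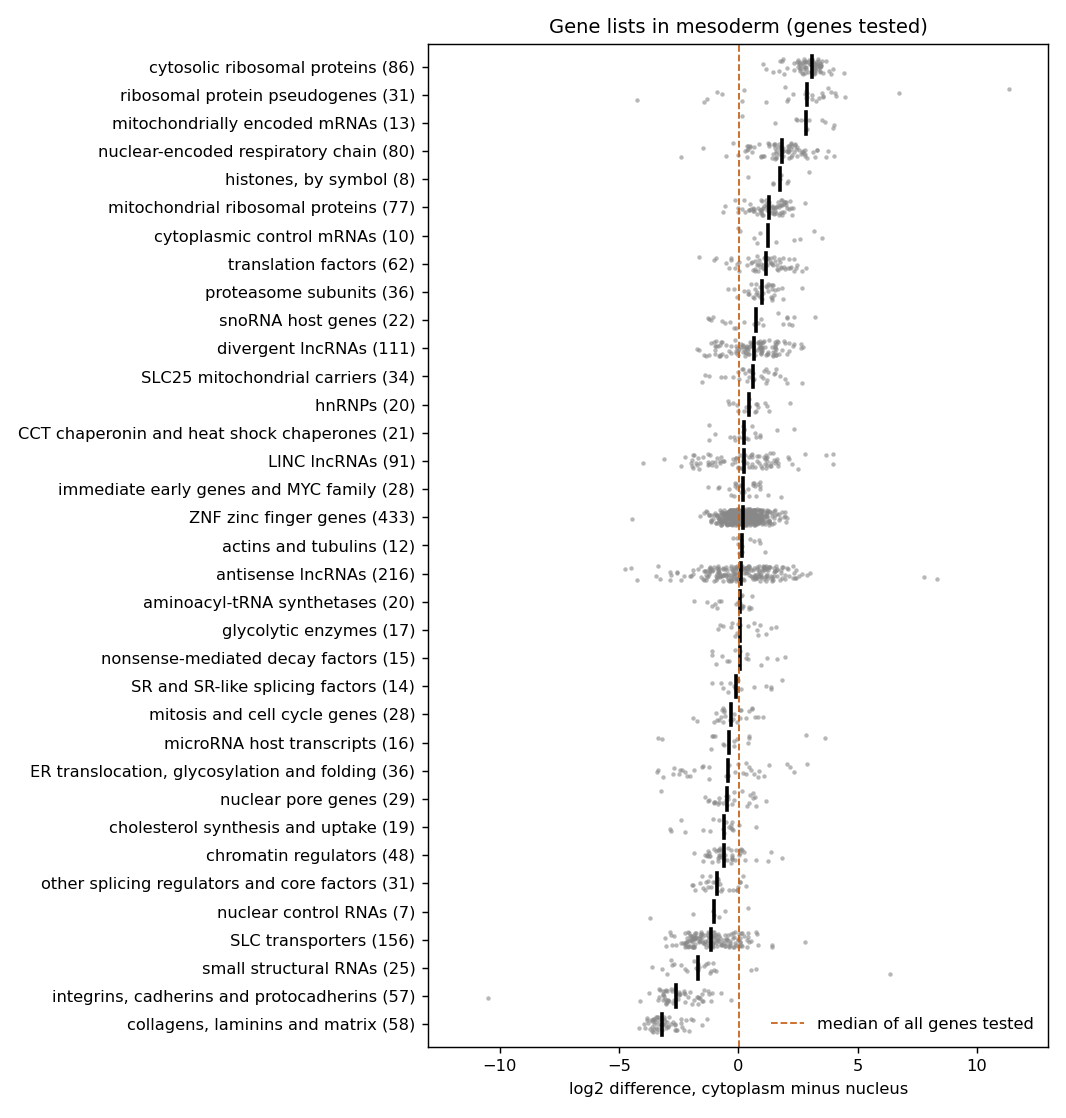
Each grey point is a tested gene, placed by its log2 difference between cytoplasm and nucleus (x axis), in 35 gene lists (y axis, number tested in brackets); black bars are list medians and the dashed line the median of all genes tested, 0.01. The lists run from ribosomal proteins at a median of 3.10 to matrix genes at -3.20; points beyond 8 in size belong to genes with 0 counts in 1 fraction and are fitted values.

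The extracellular matrix was the list that leaned furthest to the nucleus. All 58 tested collagen, laminin and other matrix genes of 61 in the table were lower in the cytoplasm, each by at least 2-fold, with a median of -3.20 and a range of -4.15 to -1.30. On the TPM scale the median was -3.99, or -3.11 relative to all genes. FN1 encodes fibronectin, a fibre-forming matrix glycoprotein. It lay at 1316, 996 and 1119 CPM in the cytoplasm and at 20918, 17682 and 16445 in the nucleus, a log2 difference of -3.93 ± 0.17 (SE; adjusted p = 9.12e-10, edgeR). No cytoplasmic value came near a nuclear one.

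LAMA5, a laminin chain of basement membranes, had 397, 311 and 346 CPM in the cytoplasm and 3524, 2502 and 3457 in the nucleus (-3.09 ± 0.17). AGRN, the heparan sulfate proteoglycan agrin, had 310, 223 and 249 against 3310, 2747 and 3317 CPM (-3.51 ± 0.15). The largest fall of a matrix gene was that of COL6A3, a chain of collagen VI, from 30.2, 21.5 and 23.6 CPM in the nucleus to 1.24, 1.57 and 1.18 in the cytoplasm (-4.15 ± 0.22). Both chains of basement membrane collagen IV fell alike, COL4A1 by 3.91 and COL4A2 by 3.84 on the log2 scale. COL18A1, FBN1 (fibrillin), FBLN2 (fibulin) and COL3A1 lay at -3.80, -3.81, -3.69 and -3.68. Of the 12 largest falls among all genes, COL6A3, FN1, COL4A1, COL4A2, FBN1, COL18A1, FBLN2, COL3A1 and CILP2 (-3.88) encode secreted proteins. Outside that group were, among others, the pseudogene GUSBP17 and the noncoding RNA KCNQ1OT1.

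Matrix messages were also measured in 2 subfractions of the nucleus. Together they made up 0.450 to 0.564% of counts in the cytoplasm, 5.04 to 5.69% in the nucleus, 4.35% in the nucleoplasm (1 library) and 3.08 to 3.95% in the 3 chromatin libraries. The share was thus high in the detergent-soluble and in the pelleted part of the nuclei. Messages of the ER list made up 0.418 to 0.432% of cytoplasmic, 1.25 to 1.44% of nuclear, 1.80% of nucleoplasmic and 0.460 to 0.945% of chromatin counts. How much ER membrane stayed with the pellet was not tested.

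Adhesion receptors leaned the same way. Of 57 tested integrins, cadherins and protocadherins, 55 were lower in the cytoplasm and 0 higher, with a median of -2.62 (-2.35 on the TPM scale, -1.47 relative to all genes). ITGB1, the beta chain shared by many integrins, had 246, 220 and 212 CPM in the cytoplasm and 1363, 1600 and 1451 in the nucleus (-2.62 ± 0.11, adjusted p = 7.17e-10, edgeR). The epithelial cadherin CDH1 lay at 165, 135 and 143 against 1248, 1267 and 1280 CPM (-3.02 ± 0.11) and CDH3 at -3.06 ± 0.11. PCDHA12, of the protocadherin alpha cluster, had 0 counts in all 3 cytoplasm libraries and 17.6, 14.6 and 10.3 CPM in the nucleus. Against a floor of 3 counts in a library of the fraction's mean depth, it was at least 72.5-fold lower in the cytoplasm. Members of that cluster share exons, so how its reads were assigned is uncertain.

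Genes of ER translocation, glycosylation and folding did not move as a body. Of 36 tested, 20 were lower in the cytoplasm and 12 higher, with a median of -0.43 (-0.61 relative to all genes on the TPM scale). Chaperones of the ER lumen were among the lower ones. HSPA5, the ER chaperone BiP, had 163, 125 and 139 CPM in the cytoplasm and 1509, 1754 and 1398 in the nucleus (-3.37 ± 0.14), and HSP90B1 and CALR lay at -2.71 and -2.49. PDIA4, a disulfide isomerase, fell furthest in this list at -3.39. SEC61G, a small subunit of the translocation channel, was higher in the cytoplasm at 31.5, 75.9 and 69.4 CPM against 5.75, 10.2 and 10.5 (2.88 ± 0.33).

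Membrane transporters of the SLC families fell in most cases: 114 of 156 were lower and 6 higher, with a median of -1.13 (-1.07 relative to all genes on the TPM scale). The glucose transporter SLC2A3 had 1702, 1458 and 1514 CPM in the cytoplasm and 5440, 6338 and 6248 in the nucleus (-1.86 ± 0.12). The amino acid transporters SLC38A2, SLC7A5 and SLC7A3 lay at -1.86, -1.15 and -3.08. SLC27A5, a bile acid and fatty acid CoA ligase named with the transporters, was the largest rise at 2.78. The SLC25 carriers, which sit in the inner mitochondrial membrane, were counted apart: 23 of 34 were higher and 5 lower, with a median of 0.61, which was -0.43 on the TPM scale but 0.45 above all genes there. SLC25A6, an ADP/ATP carrier, was the largest rise of these (2.66 ± 0.12) and SLC25A29 the largest fall among those called (-1.22). The lowest value of the list, -1.52, was not called.

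Of 19 cholesterol synthesis and uptake genes, 16 were lower and 1 higher (median -0.58). IDI1, a soluble isomerase of the pathway, rose by 0.76 and was -0.36 on the TPM scale. Among 29 nuclear pore genes, 17 were lower and 8 higher (median -0.47). NUP210, a pore protein anchored in the membrane, was the largest fall of that list at 56.5, 38.5 and 41.4 CPM against 482, 395 and 473 (-3.24 ± 0.14).

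The start of the coding sequence is shown for 5 genes that were lower in the cytoplasm and 3 that were higher, to show how the starts of ER-bound proteins differ from those of cytosolic ones. Each line gives the first 90 coding bases, 5′ to 3′, of the GENCODE 29 transcript on GRCh38; capitals mark the 12 codons of the most hydrophobic stretch that begins and ends within the first 40 residues.
FN1: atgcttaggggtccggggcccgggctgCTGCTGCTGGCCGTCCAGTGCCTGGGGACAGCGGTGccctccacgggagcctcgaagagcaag
COL6A3: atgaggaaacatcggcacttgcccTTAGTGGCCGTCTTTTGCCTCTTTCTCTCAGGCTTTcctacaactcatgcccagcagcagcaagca
HSPA5: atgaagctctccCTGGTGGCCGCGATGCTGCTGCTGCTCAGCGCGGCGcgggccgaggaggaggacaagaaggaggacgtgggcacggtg
ITGB1: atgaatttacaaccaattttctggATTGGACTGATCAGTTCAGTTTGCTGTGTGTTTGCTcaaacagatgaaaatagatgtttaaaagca
NUP210: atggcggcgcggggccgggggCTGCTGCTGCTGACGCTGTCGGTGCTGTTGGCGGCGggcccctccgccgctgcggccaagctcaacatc
EEF1A1: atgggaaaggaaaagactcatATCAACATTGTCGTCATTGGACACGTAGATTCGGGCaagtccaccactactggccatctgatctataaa
EEF1G: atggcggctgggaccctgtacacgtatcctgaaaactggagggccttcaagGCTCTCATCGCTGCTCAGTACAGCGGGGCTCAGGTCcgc
RPS2: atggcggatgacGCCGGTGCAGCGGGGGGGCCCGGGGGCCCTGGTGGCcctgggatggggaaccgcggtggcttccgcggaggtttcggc
The genes lie at chr2:215360440-215436172 (FN1, minus strand), chr2:237324003-237414375 (COL6A3, minus), chr9:125234853-125241330 (HSPA5, minus), chr10:32900319-33005792 (ITGB1, minus) and chr3:13316235-13420309 (NUP210, minus). The others lie at chr6:73515750-73523797 (EEF1A1, minus), chr11:62559601-62574086 (EEF1G, minus) and chr16:1962052-1964860 (RPS2, minus). The mean Kyte-Doolittle value of the capital codons, a scale on which hydrophobic residues are positive, was 2.09 for FN1, 2.61 for COL6A3, 2.63 for HSPA5, 2.40 for ITGB1 and 2.74 for NUP210. It was 1.19 for EEF1A1, 0.85 for EEF1G and -0.05 for RPS2.

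Over all genes, a hydrophobic start went with the nuclear fraction. Of 12049 tested genes of the nuclear genome with a GENCODE 29 coding sequence, 1858 (15.4%) had a stretch with a mean of 2.0 or more. Their median log2 difference was -1.18, against 0.20 for the other 10191. Of the hydrophobic-start genes, 71.9% were lower in the cytoplasm and 12.3% higher; of the others, 30.7% were lower and 45.2% higher. Such starts were found in 45.9% of genes in the most nuclear quintile by log2 difference and in 4.71% of the most cytoplasmic quintile. These figures describe genes, which are not independent replicates, and carry no test.

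Coding length moved with the fractions too. Median coding length fell from 2187 bases in the most nuclear quintile to 675 in the most cytoplasmic, and Spearman's rho was -0.59 for coding length across 12058 genes and -0.33 for transcript length across 13344. Within each quintile of coding length the hydrophobic-start genes were still the lower ones: medians of -0.07 against 1.42 in the shortest, -0.70 against 0.65, -1.30 against 0.22, -1.61 against -0.10, and -2.24 against -0.62 in the longest. Length and hydrophobic start thus each went with the difference when the other was held within a band.

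**Figure D2:**
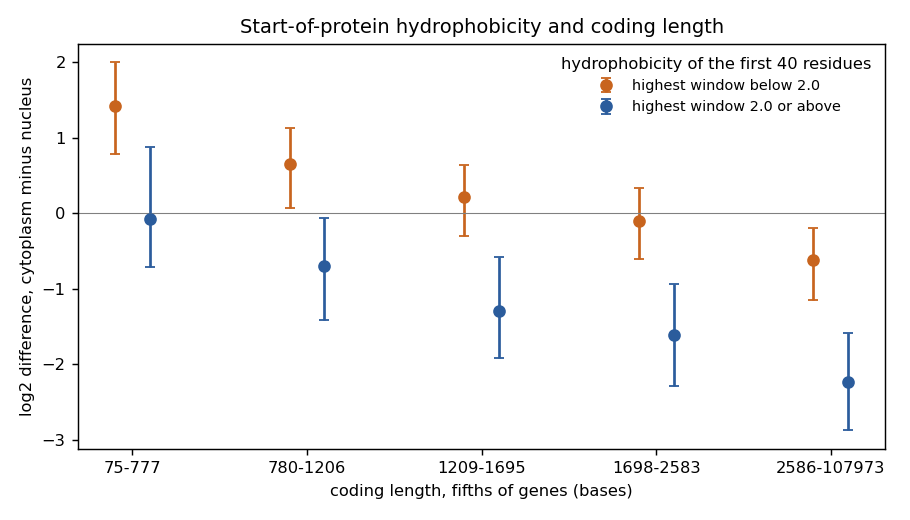
Median log2 difference between cytoplasm and nucleus (y axis) of genes in quintiles of coding length (x axis, bases), for genes with (blue) and without (orange) a hydrophobic stretch of 2.0 or more in the first 40 residues; bars span the 25th to 75th percentile of genes. The blue median lies below the orange one in every quintile, and both fall with length, from -0.07 and 1.42 to -2.24 and -0.62.

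The lists differed in how far the start of the protein divided them. In the ER list, 15 of 18 hydrophobic-start members were lower (median -2.14), while 10 of the 18 others were higher (median 0.49). All 5 hydrophobic-start cholesterol genes were lower (median -2.40), against a median of -0.35 for the other 14, of which 11 were lower. SLC transporters showed no such division, at medians of -1.12 for 64 and -1.13 for 92 genes; many transporters enter the membrane by a later segment. Of the 58 matrix genes, 51 had a hydrophobic start, and the 7 without one were all lower as well (median -3.24). The 6 respiratory chain genes with a hydrophobic start were all higher (median 2.49).

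Cytosolic ribosomal proteins stood at the other end of the scale. All 86 tested were higher in the cytoplasm, each at least 2-fold, with a median of 3.10 and a range of 1.02 to 4.44. On the TPM scale the median was 1.88, or 2.76 relative to all genes. The main median lay between 2.97 and 3.25 when any 1 library was left out. RPS2, of the small subunit, had 4448, 4889 and 5283 CPM in the cytoplasm and 463, 659 and 554 in the nucleus (3.22 ± 0.16, adjusted p = 2.57e-09, edgeR). RPL3 and RPL13A, of the large subunit, lay at 2.33 ± 0.13 and 2.80 ± 0.16. RPS29, among the shortest, had 135, 750 and 192 CPM against 18.7, 16.6 and 17.5 (4.44 ± 0.56), with cytoplasm replicate 2 far above its partners.

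The same replicate stood out for other short messages. RPL39 had 344, 771 and 428 CPM in the cytoplasm against 30.5, 42.5 and 32.5 in the nucleus (3.97 ± 0.28), and RPS27 had 462, 1339 and 797 against 55.6, 84.0 and 51.2 (3.87 ± 0.35). For each of these 3 genes the groups did not overlap, and the gene stayed higher without that replicate. Of 31 tested ribosomal protein pseudogenes (62 in the table), 24 were higher and 4 lower, with a median of 2.88. RPL22P1 had 4.56, 64.5 and 4.37 CPM in the cytoplasm and 0 counts in the nucleus, at least 83.5-fold higher against a floor of 3 counts in a library of the fraction's mean depth. Without cytoplasm replicate 2 that bound was 15.2-fold. RPL23AP42 and RPL39P3 lay at 4.45 and 4.08. Reads can be shared between these copies and their parent genes, so they are no separate evidence.

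Other messages of the translation apparatus leaned to the cytoplasm as well. Of 62 translation factors, 51 were higher and 5 lower, with a median of 1.17 (0.90 relative to all genes on the TPM scale). The elongation factor EEF1A1 had 28779, 28919 and 29270 CPM in the cytoplasm and 5413, 7305 and 5404 in the nucleus (2.35 ± 0.15). EEF1G lay at 2.65 and EEF2 at 1.02, though EEF2 was -0.10 on the TPM scale. EIF4EBP1, a repressor of cap-dependent initiation, was the largest rise of the list (2.83), and EIF4G1, the long initiation scaffold, the largest fall (-1.65 ± 0.11). Of 20 aminoacyl-tRNA synthetases, 4 were higher and 7 lower (median 0.09).

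Mitochondrially encoded RNAs were higher in the cytoplasm in mesoderm. Of the 13 mRNAs, 12 rose, with a median of 2.83 (2.35 relative to all genes on the TPM scale), as did both rRNAs, MT-RNR1 at 2.33 and MT-RNR2 at 2.41. MT-CO2, a subunit of cytochrome oxidase, had 5351, 7108 and 7024 CPM in the cytoplasm and 412, 467 and 454 in the nucleus (3.96 ± 0.17, adjusted p = 8.41e-10, edgeR). MT-CO1, MT-CO3, MT-CYB and MT-ND4 lay between 2.43 and 2.88, and MT-ND1, MT-ND2 and MT-ATP6 at 2.48, 2.64 and 2.97. MT-ND6, the mRNA of the light strand, lay at 1.55. MT-ND5 was the exception at 1277, 1640 and 1410 CPM against 1124, 1432 and 1524 (0.18 ± 0.14, edgeR adjusted p = 0.269), with overlapping groups. MT-ATP8, MT-ND3 and MT-ND4L, which are very short, rested more on cytoplasm replicate 2: MT-ATP8 had 7.55, 84.2 and 13.8 CPM against 1.48, 3.34 and 2.61 (4.03 ± 0.85).

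Nuclear genes for mitochondrial proteins followed. Of 80 respiratory chain genes, 75 were higher and 3 lower (median 1.85). COX4I1 had 276, 327 and 327 CPM in the cytoplasm and 80.4, 140 and 85.6 in the nucleus (1.71 ± 0.18). ATP5ME, a small subunit of ATP synthase, was the largest rise (4.02 ± 0.69, cytoplasm 11.9, 72.4 and 16.7 CPM), and COX7A1 the largest fall (-2.39 ± 0.43) at under 4 CPM in every library. Of 77 mitochondrial ribosomal proteins, 70 were higher and 2 lower (median 1.30), from MRPL33 at 2.82 to MRPL32 at -0.62, the latter 0.25 when rows without an Ensembl transcript ID were left out.

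Of 36 proteasome subunits, 33 were higher and 1 lower, with a median of 1.02 that was -0.04 on the TPM scale and 0.84 above all genes there. PSMB10 was the largest rise (2.66) and PSMD1 the fall (-0.44). Of 8 tested histone genes, listed by symbol (15 in the table), 7 were higher and 0 lower (median 1.77). The list holds linker histones outside the replication-dependent clusters, and near-identical copies make single histone genes uncertain. Among 12 largest rises were also COMMD6 (3.96) and PPDPF (3.92), short messages of cytosolic proteins. RN7SL1, the RNA of the signal recognition particle, had 84.4, 514 and 285 CPM against 1.84, 3.34 and 6.63 (6.38 ± 0.65). Of 25 tested genes with symbols of small structural RNAs, this one included, 22 were lower in the cytoplasm (median -1.69), such as SNORA8 at -2.81; the assembled transcripts of these genes may be host transcripts and not the small RNA.

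Housekeeping messages often used as cytoplasmic controls spread widely. TPT1 had 2404, 2752 and 2694 CPM in the cytoplasm against 202, 309 and 226 in the nucleus (3.50 ± 0.17), and GAPDH 2884, 2679 and 2729 against 905, 1023 and 992 (1.59 ± 0.11). ACTB, ACTG1, TUBA1B and LDHA lay lower, at 0.67, 1.11, 0.89 and 0.81, and all 4 were below 0 on the TPM scale. ENO1 (0.00, edgeR adjusted p = 0.973) and PGK1 (0.08, edgeR adjusted p = 0.454) overlapped between fractions. Of the 17 glycolytic enzymes, 8 were higher and 5 lower (median 0.08), so this pathway did not lean one way.

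**Figure D3:**
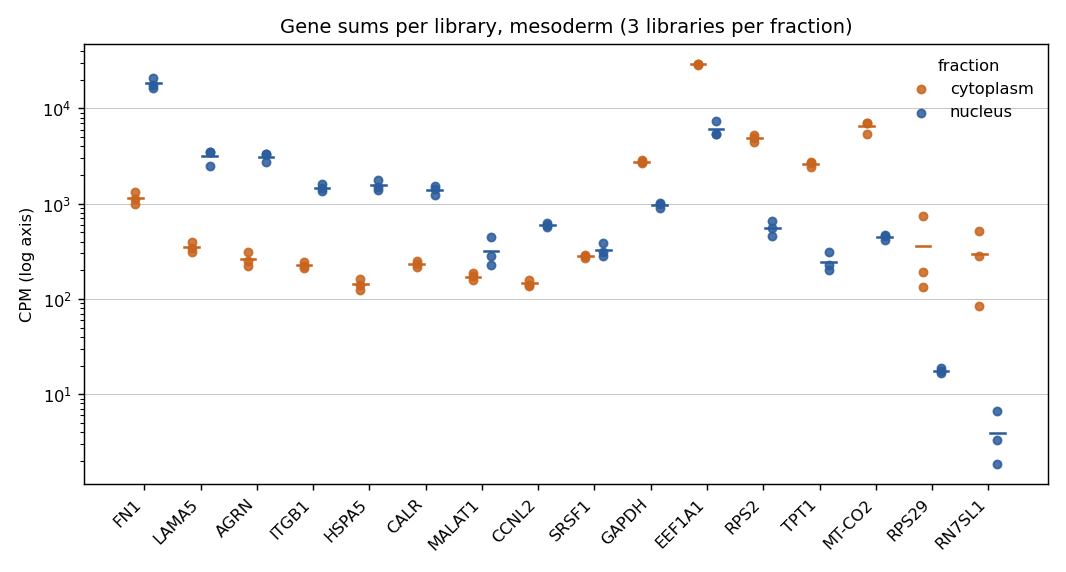
Level in CPM (y axis, log scale) of 16 named genes in each of the 3 cytoplasm (orange) and 3 nucleus (blue) libraries; horizontal bars are group means. Matrix, adhesion and ER genes on the left are higher in the nucleus, GAPDH and the genes to its right are higher in the cytoplasm, and SRSF1 overlaps; RPS29 and RN7SL1 show the widest cytoplasmic spread.

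Noncoding RNAs that are known to stay in the nucleus were lower in the cytoplasm by less than the matrix genes were. Of 7 tested, 6 fell and 1 rose, with a median of -1.0. MALAT1, an RNA of nuclear speckles, had 156, 172 and 187 CPM in the cytoplasm and 227, 281 and 445 in the nucleus (-0.79 ± 0.18), and NEAT1, of paraspeckles, lay at -1.0 ± 0.18. KCNQ1OT1, an imprinted antisense RNA, fell most, to 2.54, 2.74 and 2.52 CPM from 25.8, 14.5 and 67.5 (-3.70 ± 0.46), with a wide nuclear spread. FTX, SNHG14 and TUG1 lay at -1.88, -1.08 and -0.54, and JPX rose by 0.41. The share of this list was 0.0848 to 0.103% of cytoplasmic, 0.168 to 0.238% of nuclear and 0.283 to 0.376% of chromatin counts.

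Noncoding RNAs in general did not lean to the nucleus. Of 851 tested lncRNA genes, 264 (31.0%) were higher and 295 (34.7%) lower, with a median of -0.03. Divergent lncRNAs, named for the gene whose promoter they share, were higher in 56 and lower in 16 of 111 (median 0.65, and -0.21 on the TPM scale but 0.67 above all genes there). Antisense lncRNAs were higher in 78 and lower in 55 of 216, against 38.7% higher and 37.8% lower over all tested genes. The share higher was thus near that of all genes. Reads from the partner gene may be counted with them. Of 22 snoRNA host genes, 11 were higher and 6 lower (median 0.74, and -0.22 on the TPM scale but 0.66 above all genes there). SNHG29 lay at 3.22 and GAS5 at 1.03. H19, an imprinted RNA abundant in embryonic tissue, had 285, 346 and 342 CPM in the cytoplasm and 22.3, 37.5 and 26.0 in the nucleus (3.62 ± 0.17).

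Messages of the splicing machinery split by class. Of 31 splicing regulators and core factors, 23 were lower and 2 higher (median -0.88, and -1.01 relative to all genes on the TPM scale). CCNL2, cyclin L2, was the largest fall, at 160, 138 and 141 CPM in the cytoplasm against 619, 599 and 564 in the nucleus (-1.95 ± 0.10). SRRM2, a scaffold of nuclear speckles, lay at -1.29, the helicase DDX17 at -0.99 and the branch point protein SF1 at 0.31, or -0.80 on the TPM scale. Of 20 hnRNPs, 14 were higher and 2 lower (median 0.46, and -0.41 on the TPM scale but 0.47 above all genes there). HNRNPA1 had 3510, 4161 and 3852 CPM against 757, 1181 and 793 (2.17 ± 0.18), while HNRNPDL and HNRNPU lay at -0.43 and -0.41. With rows lacking an Ensembl transcript ID left out, HNRNPA1 was 0.17 (adjusted p = 0.309, edgeR). The 2 new isoforms of this gene were higher at 2.86 and 2.47, and among annotated ones ENST00000546500 was higher (0.85), ENST00000547566 higher (1.29) and ENST00000550482 lower (-0.95).

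The 14 SR splicing factors divided evenly, 5 higher and 5 lower (median -0.07). SRSF9 and SRSF3 lay at 1.82 and 1.18, SRSF11 and SRSF5 at -1.08 and -0.73, and SRSF1 at 281, 290 and 266 CPM against 308, 387 and 284 (-0.14, edgeR adjusted p = 0.280). Of the 4 CLK kinases, which phosphorylate SR proteins, CLK2 alone passed the test (-0.74). Chromatin regulators were lower in 34 and higher in 6 of 48 (median -0.62). Their median coding length was 5044.5 bases. All tested genes of 2586 coding bases or more without a hydrophobic start also had a median of -0.62, with 69.6% lower. KMT2A, a histone methyltransferase, had 37.0, 30 and 33.2 CPM in the cytoplasm against 127, 118 and 137 (-1.85 ± 0.10), and the remodeller CHD4 lay at -1.32. RNF2, a Polycomb ubiquitin ligase, was the largest rise (1.85). ZNF zinc finger genes were higher in 164 and lower in 96 of 433 (median 0.19, and -0.73 on the TPM scale but 0.15 above all genes there). Their share of higher genes was near the 38.7% over all tested genes, and their share of lower ones under the 37.8%.

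Single transcripts showed which isoforms made up these sums. Of 28308 tested isoforms, 13282 (46.9%) differed between the fractions by edgeR's quasi-likelihood test, 6778 (23.9%) higher in the cytoplasm and 6504 (23.0%) lower; 17707 (62.6%) did not overlap between the groups. Isoforms annotated as retaining an intron leaned to the nucleus: of 654 tested, 327 were lower (50.0%) and 32 higher (4.89%), with a median of -1.27. New isoforms were lower in 3377 and higher in 777 of 10962 (median -0.78). Annotated protein-coding isoforms were higher in 5364 (37.7%) and lower in 2395 (16.8%) of 14242 (median 0.45). Isoforms annotated as targets of nonsense-mediated decay, a pathway that degrades messages during translation, were higher in 102 and lower in 33 of 387 (median 0.78).

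Within genes the same order held. In 486 genes with both kinds, the retained-intron isoform lay below the coding isoform by a median log2 gap of -1.90, and below it in 87.7% of genes. New isoforms lay below the coding isoform in 69.2% of 3308 genes (median gap -0.73). Nonsense-mediated decay isoforms lay a median of 0.20 above it in 322 genes, and processed transcripts showed a median gap of 0.00 in 210. New isoforms rest on the authors' assembly, and reads were divided between overlapping isoforms by estimation, an error the test does not hold.

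Isoform usage, whether the isoforms of a gene lean to different fractions, was tested gene by gene with diffSpliceDGE of edgeR. It differed in 2014 of 6662 genes (30.2%); on simulated counts this test made more false calls than its threshold allows. SR factors were called in 7 of 9, hnRNPs in 8 of 18 (44.4%), other splicing factors in 12 of 29 (41.4%) and snoRNA hosts in 10 of 17. Matrix genes were called in 3 of 24 (12.5%) and chromatin regulators in 6 of 42, below the share over all genes. A pair with 1 isoform called higher and 1 called lower, each at 10 CPM or more on average and without overlap, was found in 222 genes.

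The introns that tell the nuclear isoforms of SRSF5, RBM39 and CLK1 from their coding isoforms are shown by their splice sites, since these genes themselves act in splicing. Each 5′ site line gives 3 exon bases in lower case and 6 intron bases in capitals; each 3′ site line gives 20 intron bases in capitals and 3 exon bases in lower case, from GRCh38 on the strand of the gene.
SRSF5 5′ site: cagGTTTGT
SRSF5 3′ site: CACAATTATCTTGTGTTAAGgat
RBM39 5′ site: aagGTGAGA
RBM39 3′ site: CTTCTATCAACCCTGCTTAGgat
CLK1 upstream intron 5′ site: gggGTATGA
CLK1 upstream intron 3′ site: CGCCCACTTGACGTTTCCAGaag
CLK1 downstream intron 5′ site: gatGTATAG
CLK1 downstream intron 3′ site: GATTTATTTCTCTCTTTTAGatg
The SRSF5 intron lies at chr14:69769252-69770466 (plus strand, 1215 bases) and the RBM39 intron at chr20:35739018-35740823 (minus strand, 1806 bases). The CLK1 introns lie at chr2:200860216-200861237 (minus strand, 1022 bases) and chr2:200859747-200860124 (378 bases). All 4 begin with GT and end with AG, the usual intron ends.

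SRSF5 encodes an SR protein whose gene sum was lower in the cytoplasm. One of its coding isoforms, ENST00000394366, had 20.7, 13.2 and 26.6 CPM in the cytoplasm and 0, 0 and 0.301 in the nucleus. The retained-intron isoform ENST00000556184 had 0 counts in the cytoplasm and 26.8, 45.8 and 25.7 CPM in the nucleus, at least 168-fold lower in the cytoplasm. The bound is against a floor of 3 counts in a library of the fraction's mean depth. These are small parts of the gene's sum. A more abundant coding isoform, ENST00000557154, was not called and overlapped, at 98.4, 78.8 and 111 CPM in the cytoplasm and 98.1, 182 and 101 in the nucleus (-0.13 ± 0.27, edgeR adjusted p = 0.718).

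RBM39, an SR-like splicing factor, also had an opposite pair. The coding isoform ENST00000253363 had 26.6, 35.6 and 29.9 CPM in the cytoplasm and 0 counts in the nucleus, at least 105-fold higher. A second and more abundant coding isoform, ENST00000361162, was not called, at 79.3, 68.1 and 62.1 against 83.4, 83.2 and 87.0 CPM (-0.02 ± 0.08, edgeR adjusted p = 0.862). The isoform with the retained intron, ENST00000463004, had 19.2, 11 and 18.1 CPM against 70.6, 85.9 and 75.2 (-2.0 ± 0.22). CLK1, whose sum did not differ (0.19, edgeR adjusted p = 0.106), had a coding isoform ENST00000321356 at 44.9, 48.9 and 44.3 CPM against 20.7, 24.7 and 20.2 (1.34 ± 0.12). Its retained-intron isoform ENST00000473565 had 7.62, 6.65 and 6.0 against 30.8, 25.2 and 25.2 (-1.75 ± 0.17). On the TPM scale the CLK1 coding isoform was at 0.03 and no longer called.

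SRSF1, whose sum did not differ either, had isoforms leaning both ways. The coding isoform ENST00000582730 had 134, 142 and 138 CPM in the cytoplasm and 57.5, 110 and 68.0 in the nucleus (1.08 ± 0.23), a difference that was -0.17 on the TPM scale. A second coding isoform, ENST00000258962, was lower in the cytoplasm at 66.0, 63.2 and 60.6 against 102, 117 and 93.2 CPM (-0.46 ± 0.10), a call lost in 3 of the 6 fits that leave out 1 library. ENST00000581979, annotated as a target of nonsense-mediated decay, had 0 counts in the cytoplasm and 80.9, 62.5 and 53.4 CPM in the nucleus, at least 335-fold lower. Among snoRNA hosts, GAS5 had an isoform without a GENCODE 29 type at 101, 125 and 131 CPM against 9.30, 17.4 and 8.84 (3.62 ± 0.31). Its retained-intron isoform ENST00000421068 had 2.54, 1.87 and 1.92 against 27.9, 25.5 and 29.2 CPM (-3.45 ± 0.18).

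Further opposite pairs were found in HNRNPD, HNRNPA2B1, HNRNPA1, SRSF7, FUBP1 and LUC7L3, which were looked for in the splicing lists, and in CTBP2, GAS6, RGL2 and LHFPL6. In HNRNPA2B1 the nuclear partner was an annotated retained-intron isoform (19.1, 16.5 and 11.4 CPM against 65.5, 71.5 and 70.5; -1.89 ± 0.17). In LUC7L3 both partners are annotated as coding, at 1.18 ± 0.28 and -1.54 ± 0.13. In GAS6, a secreted ligand, a new isoform was the cytoplasmic one (53.9, 51.4 and 43.5 CPM against 0, 0 and 3.41), and the annotated coding isoform the nuclear one (0, 3.56 and 4.44 against 113, 109 and 116). LHFPL6 had a nuclear isoform at 14.6, 3.62 and 45.9 CPM, a wide spread.

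**Figure D4:**
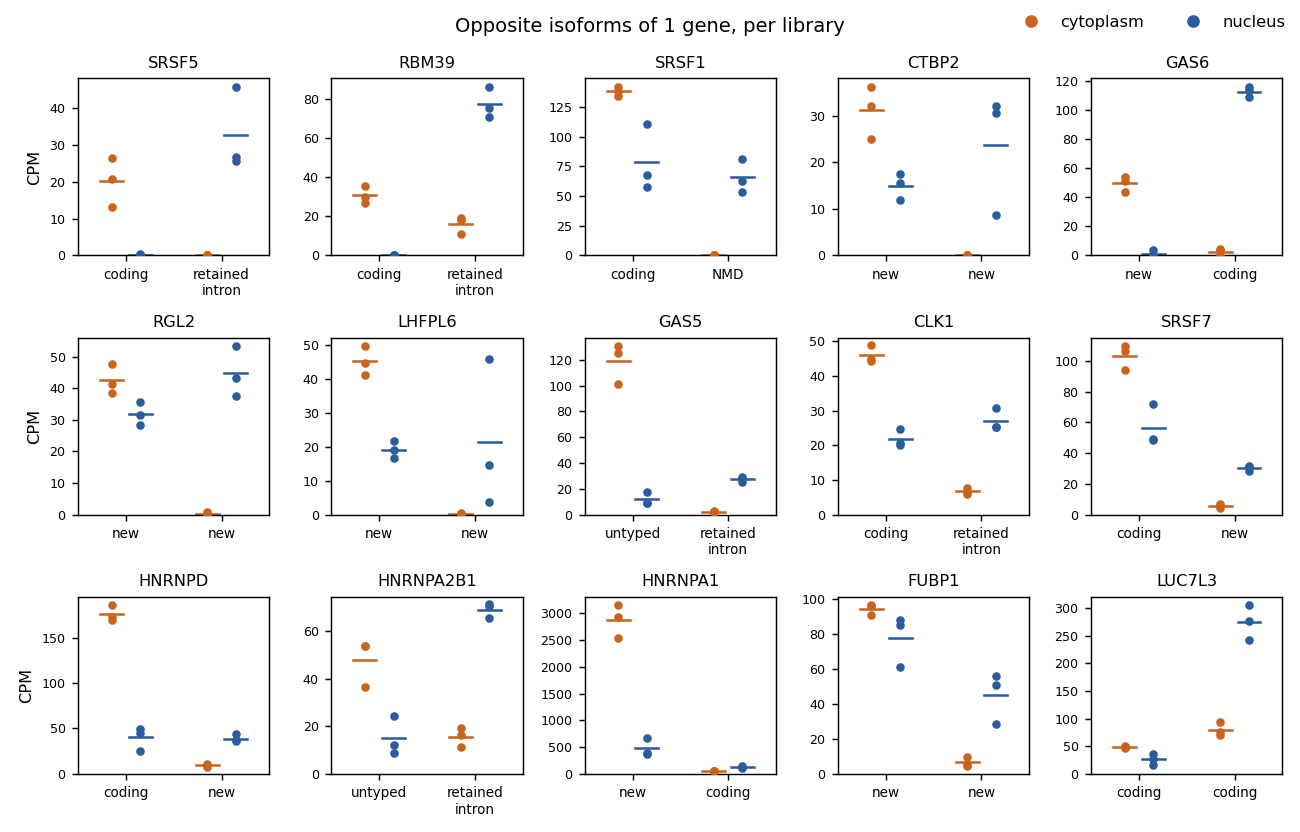
Level in CPM (y axis) of the isoform called higher in the cytoplasm (left in each panel) and the isoform called lower (right) for 15 genes, in the 3 cytoplasm (orange) and 3 nucleus (blue) libraries; bars are group means, NMD is nonsense-mediated decay, new is an assembled isoform and untyped has no GENCODE 29 type. In SRSF5 the coding isoform lies at 13.2 to 26.6 in the cytoplasm and the retained-intron isoform at 25.7 to 45.8 in the nucleus, with almost nothing in the opposite fraction.

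The mesoderm difference was compared with the mean of those in undifferentiated H1 cells (hPSC), ectoderm and endoderm, each with 3 libraries per fraction, over 10681 genes tested in all 4 cell types. It differed for 5281 genes (49.4%) by edgeR's quasi-likelihood test of the difference of differences: 3252 (30.4%) were higher in mesoderm and 2029 (19%) lower. Each cell type was fractionated in its own preparations and counted on its own transcript assembly, so cell type, preparation and assembly cannot be told apart. With total counts in place of TMM scaling, 5454 genes differed, of which 21.2% were higher instead of 61.6%, and the median moved from 0.11 to -0.43. List counts below are therefore given under both scalings.

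Mitochondrial RNA stood far apart between the cell types. All 13 mitochondrial mRNAs were higher in mesoderm under both scalings, with a median cytoplasm-nucleus difference of 2.76 there against -5.59, -3.27 and -6.14 in hPSC, ectoderm and endoderm. In the other 3 cell types mitochondrial RNA was thus lower in the cytoplasm, at 0.399 to 1.58% of counts against 8.09 to 16.1% in the nucleus. MT-CO2 lay at 3.89 in mesoderm and at -5.00, -3.39 and -5.40 in hPSC, ectoderm and endoderm, a difference of 8.49 ± 0.41 (adjusted p = 1.27e-12, edgeR). Mitochondrial RNA in the mesoderm nucleoplasm library was 1.69% of counts, and in the chromatin libraries 1.12, 0.769 and 5.53%.

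Ribosomal protein messages were also more cytoplasmic in mesoderm, in 82 of 86 genes (74 with total counts). Their median was 3.03 in mesoderm, against 1.49, -0.15 and 1.05 in those 3 cell types in the same order. RPS2 lay at 3.15 in mesoderm against 1.42, -0.51 and 0.67 (difference 2.62 ± 0.30); its mean in the nucleus was 559 CPM, against 1620.4, 4697 and 1381. Nuclear ribosomal protein shares were 3.68 to 5.30% (hPSC), 10.1 to 14.7% (ectoderm) and 2.39 to 2.74% (endoderm). Of 79 respiratory chain genes, 56 were higher and 3 lower, or 39 and 10 with total counts. Of 58 translation factors, 26 were higher and 4 lower, but 17 and 17 with total counts, so no direction is given for that list.

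Matrix genes leaned to the nucleus in all 4 cell types: the median over 46 genes was -3.29 in mesoderm and -3.94, -2.14 and -4.42 in the other 3, and 8 were higher and 4 lower in mesoderm, or 1 and 11 with total counts. Endoderm, the other cell type rich in FN1, held it at 2.86 to 3.40% of nuclear and 0.101 to 0.129% of cytoplasmic counts. Mitosis genes were more nuclear in mesoderm in 18 of 28 (27 with total counts) and other splicing factors in 16 of 31 (28 with total counts), with 0 higher in either list under both scalings. Over all genes, 2029 of 10681 were lower in mesoderm, or 4296 with total counts. The larger list counts with total counts thus go with a shift of all genes. LARP7, which binds the 7SK RNA, lay furthest below the other cell types among called genes with a symbol and a mean of at least 10 CPM in mesoderm, at -1.48 in mesoderm against 1.30, 2.93 and 2.65 (difference -3.77 ± 0.28). When rows without an Ensembl transcript ID were left out, LARP7 was 1.75 in mesoderm, so its nuclear lean rests on new isoforms.

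**Figure D5:**
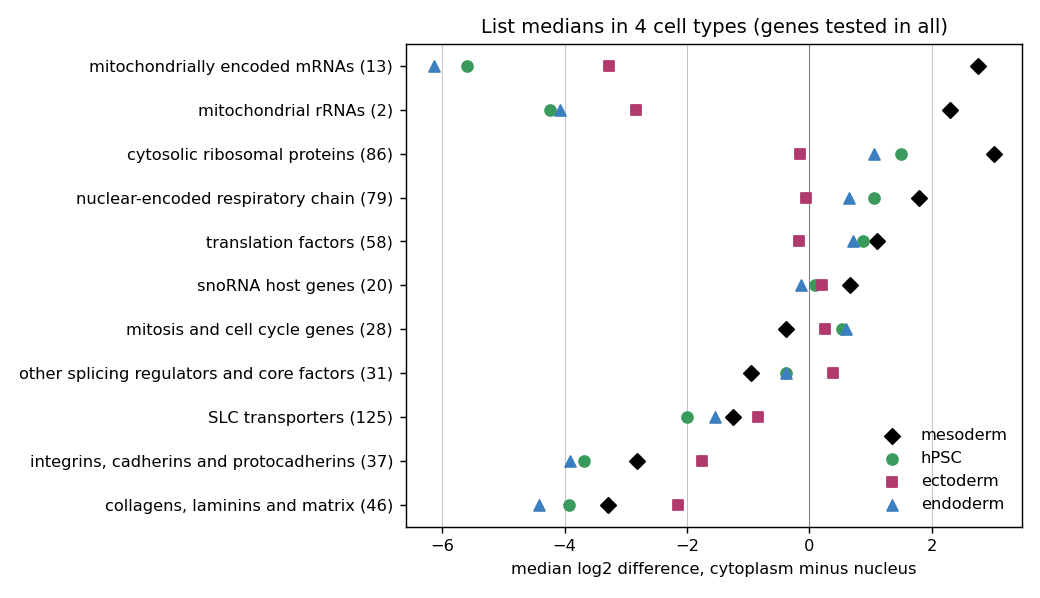
Median log2 difference between cytoplasm and nucleus (x axis) of 11 gene lists (y axis, genes tested in brackets) in mesoderm (black diamonds), hPSC (green circles), ectoderm (red squares) and endoderm (blue triangles). The mitochondrial mRNA medians lie at 2.76 in mesoderm and between -6.14 and -3.27 in the others, while matrix medians are negative in all 4.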

How the data were processed

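The libraries were prepared from total RNA per the labels' protocols; STAR, RSEM and hg38 are named, without versions, in the submitters' processing notes. The deposited count tables hold whole-number counts per assembled transcript, made by the authors on a separate assembly for each cell type; they may be rounded RSEM estimates. The deposited TPM table gives the same mesoderm transcripts scaled by the authors for length and library. Counts were summed per Ensembl gene (14 versioned duplicates merged) and tested with edgeR 4.0.16 in R 4.3.3: TMM scaling, a minimum count of 10 in filterByExpr, quasi-likelihood F tests on 6 libraries, Benjamini-Hochberg adjustment and an adjusted p under 0.05. TPM values were tested with limma 3.58.1 on log2(TPM + 1), so folds of low genes are understated there; DESeq2 1.42.0 was a further alternative. Printed levels are counts per total of each library.

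Gene types, coding sequences and introns came from GENCODE 29 on GRCh38, which holds 14573 of 15004 genes (97.1%). Start hydrophobicity is the highest mean Kyte-Doolittle value over 12 residues of the translated coding sequence within residues 1 to 40. Genes named are the 12 largest rises and falls among called genes with a mean of 10 CPM or more, no overlap and a call in every fit without 1 library, and in each list the 3 highest and the largest rise and fall; all members of short lists may be named. Some genes that this rule picks are not reported here. Isoform pairs are those largest by the same measures. The members, lists and comparisons were chosen with earlier results of these data known. Scripts were tested on simulated data. 1 column that matched no sample was not used.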

Additional observations from a re-analysis of the deposited data

Results flagged for a closer look

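The cytoplasm-nucleus difference of the genes below differed between mesoderm and the mean of hPSC, ectoderm and endoderm by the test of the difference itself (edgeR, adjusted p under 0.05); values are log2 differences of differences, and the transcript assembly changes with the cell type. Mitochondrial mRNAs were higher in mesoderm by 9.11 (MT-ATP8), 8.75 (MT-ND3), 8.72 (MT-ATP6), 8.49 (MT-CO2), 8.19 (MT-ND4L), 7.75 (MT-ND2), 7.63 (MT-ND1), 7.42 (MT-CO3), 7.18 (MT-CYB), 7.06 (MT-CO1), 7.01 (MT-ND4), 6.68 (MT-ND6) and 5.91 (MT-ND5). The mitochondrial rRNAs were higher by 6.29 (MT-RNR2) and 5.74 (MT-RNR1). Ribosomal protein messages were higher by 3.82 (RPS29), 2.62 (RPS2), 2.22 (RPL13A) and 1.62 (RPL3).

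Of 6 nuclear noncoding RNAs tested, 3 were lower in mesoderm, among them MALAT1 (-2.06) and FTX (-1.93). The median cytoplasm-nucleus difference of the 6 was -1.0 in mesoderm and -0.59, 1.22 and -0.61 in hPSC, ectoderm and endoderm. By these medians, ectoderm lay furthest from mesoderm. Housekeeping messages used as cytoplasmic controls had medians of 1.17 in mesoderm and 0.99, -0.43 and 0.72 in the others, in that order. How well the ectoderm fractions were separated was not tested. Among the 6 largest falls of called genes with a mean of at least 10 CPM in mesoderm, LARP7 differed by -3.77, CHD9, a chromatin remodeller, by -3.09, DANT2 by -2.92 and KIF14, a mitotic kinesin, by -2.60. CHD9 had a mean of 0.618 CPM in endoderm cytoplasm and 0 counts in endoderm nucleus, so its mean over the other cell types rests partly on a fitted value. ENSG00000290548 differed by -4.16 and ENSG00000280614 by -3.88. ENSG00000280800 differed by 8.30, with 7227, 8091 and 19553 CPM in the mesoderm cytoplasm and 0, 1727 and 0 in the nucleus. Which RNA the reads of ENSG00000280614 and ENSG00000280800 came from was not tested.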

How the results depend on the processing

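Counts of called gene sums (10436) lay between 9892 and 10615 when any 1 library was left out, and were 10106 with DESeq2, 10438 with upper-quartile scaling, 9119 of 14394 with all 10 mesoderm libraries in the fit and 8230 with Ensembl transcripts only; 5577 were also changed at least 2-fold. Called isoforms (13282) were 16176 with DESeq2 and 17445 on TPM, where 11.3% were higher instead of 51.0%, 39.8% with total counts, and 10919 to 13513 without 1 library. Isoform usage (2014 genes) fell to 742 by the Simes method over transcripts and lay between 1658 and 2337 without 1 library. The difference between cell types (5281) was 4522 to 4779 without 1 mesoderm library. Same-numbered libraries did not deviate together (correlations 0.114, 0.061 and -0.05). Noise of single libraries could hide a shared origin, so this cannot show whether the numbers pair them. With the replicate block 10428 gene sums, 10595 isoforms, 1605 usage genes and 5071 differences were called.

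On the TPM scale these named values changed sign: IDI1 -0.36, EEF2 -0.10, PGK1 -1.03, ACTB -0.46, ACTG1 -0.023, TUBA1B -0.24, LDHA -0.35, MT-ND5 -0.96, JPX -0.32, SF1 -0.80, CLK1 -0.57, ID1 -0.16, and the cytoplasmic isoforms of SRSF1 -0.17, RGL2 -0.60, SRSF7 -0.15, FUBP1 -0.74 and LUC7L3 -0.062. These values are not taken relative to the TPM medians, which were -0.88 over genes and -0.86 over isoforms. Of those listed, only PGK1 and MT-ND5 lay below that median. With Ensembl transcripts only, MRPL32 was 0.25 and LARP7 1.75. ENSG00000280800 lost its call with DESeq2, with all 10 libraries and in 5 of 6 fits without 1 library, and MALAT1 with all 10 libraries (-0.77). Over 122 named gene sums, 1747 of 1798 alternatives kept direction and call, 23 lost the call, 14 gained it and 14 changed sign, 2 of them outside the TPM scale. All 252 alternatives run for 28 named differences between cell types kept both: total counts, no filter, the replicate block and each mesoderm library left out. TPM, Ensembl transcripts only and leaving out libraries of the other cell types were not run there. The causes were not tested. Of the nucleus libraries, 2 were less deep than every cytoplasm library, which limits messages near 0 there.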

Other observations

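Of 28 tested immediate early genes and relatives, 13 were called higher in the cytoplasm and 5 lower (median 0.22 on the log2 scale, and -0.75 on the TPM scale, 0.13 above all genes there). Over all tested genes, 38.7% were higher and 37.8% lower. The share higher was thus not far from that of all genes, and the share lower was under it. The ID genes encode inhibitors of helix-loop-helix factors and are known targets of BMP signalling. ID2 had 235, 241 and 229 CPM in the cytoplasm and 62.7, 76.8 and 75.6 in the nucleus (1.80 ± 0.09, SE). ID3 lay at 1.23 and ID1 at 0.92, the last at -0.16 on the TPM scale. FOS had 30.2, 24.3 and 28.6 CPM in the cytoplasm and 75.0, 72.9 and 65.4 in the nucleus (-1.28 ± 0.11, SE), the lowest value of the list.

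Of 21 chaperonin and heat shock genes, 10 were called higher and 4 lower (median 0.23 on the log2 scale, and -0.89 on the TPM scale, 0.01 below all genes there). This share higher too was not far from the 38.7% over all tested genes. HSPA8, the constitutive cytosolic Hsp70, had 890, 788 and 805 CPM in the cytoplasm and 1664, 1925 and 1576 in the nucleus (-0.98 ± 0.12, SE). HSP90AB1 did not overlap between the fractions but was not called (-0.18, edgeR adjusted p = 0.192). HSPE1, a small mitochondrial chaperonin subunit, had the highest value of the list (2.35 ± 0.24, SE). Of 267 tested pseudogenes, 77 (28.8%) were called higher and 134 (50.2%) lower, with a median of -0.62. Over all tested genes the shares were 38.7% and 37.8%.

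Among the 5 genes without a symbol that had the highest mean CPM, several annotated as lincRNAs varied widely between libraries of 1 fraction. The genes were picked after their values were seen, and which RNA their reads came from was not tested. ENSG00000280441 had 3447, 4221 and 7082 CPM in the cytoplasm and 8627, 1686 and 202 in the nucleus, with no call. ENSG00000280614 had 7.75, 37.97 and 33.2 CPM in the cytoplasm and 2818, 310 and 1443 in the nucleus. ENSG00000281181 had 4.75, 4.08 and 12.2 CPM in the cytoplasm and 774.5, 80.2 and 1576 in the nucleus.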
